A study of Arabidopsis thaliana with 248 samples.

Results

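The mRNA of cmt2/3 ldl2 seedlings was compared with that of wild-type (WT) seedlings over all 33602 genes of a count table, in 3 libraries of each genotype. These are 6 of the 248 samples of the series, which also holds chromatin and DNA methylation libraries, and 6 of the 27 libraries of 1 mRNA-seq experiment with 9 genotypes. The genes were split by the annotation in the table into 27416 protein-coding genes, 3903 transposable element (TE) genes, 924 pseudogenes, 689 tRNA genes, 394 other RNA genes, 177 miRNA genes, 71 snoRNA genes, 15 rRNA genes, and 13 snRNA genes. The cmt2/3 ldl2 plants of Arabidopsis thaliana carry mutations in CMT2, CMT3, and LDL2, with the ldl2-1 T-DNA insertion for LDL2, and the alleles of CMT2 and CMT3 are not given in the sources used here. WT was the strain Columbia-0. Seedlings of both genotypes were taken at 2 weeks of age from gellan gum plates with sucrose under long days. The 3 libraries of a genotype are independent biological replicates. Also used below are 3 libraries of cmt2/3, which lacks the ldl2 mutation, and 3 of suvh4/5/6 ldl2, which carries mutations of the H3K9 methyltransferase genes SUVH4, SUVH5, and SUVH6 in place of those of CMT2 and CMT3.

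CMT2 and CMT3 are chromomethylases, plant DNA methyltransferases that bind dimethylated histone H3 lysine 9 (H3K9me2) and methylate cytosines outside of CG sites. The proteins SUVH4, SUVH5, and SUVH6 bind this DNA methylation and methylate H3K9, so that each mark maintains the other and keeps TEs silent. LDL2 belongs to the LSD1-like family of histone demethylases and acts on H3K4 methylation, a mark of transcribed genes. TEs are sequences that can copy or move themselves, and most lie around the centromeres of the plant.

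The main targets of CMT3 are CHG sites, where H is any base but G, and these are in capitals (CAG, CTG, CCG, or CGG, the last being CCG on the other strand) in the stretches shown here. The sequences are from the RefSeq assembly TAIR10.1, in the 5′ to 3′ direction of the gene. AT3G44215 (first 200 bases, chr3:15923491-15923690, minus strand, 14 sites) had the highest level in cmt2/3 ldl2 among the TE genes described below that rose. AT2G01840 (first 200 bases, chr2:378248-378447, minus strand, 13 sites) was also higher in cmt2/3 ldl2 than in cmt2/3. AT4G16870 (first 200 bases, chr4:9488198-9488397, minus strand, 8 sites) is the TE gene with the largest fall. AT3G01345 (200 bases from the start codon, chr3:129319-129518, plus strand, 9 sites) and AT3G05160 (coding part of the first exon, chr3:1456884-1456997, minus strand, 6 sites) are protein-coding genes described below, the first higher and the second lower than in both WT and cmt2/3.
AT3G44215: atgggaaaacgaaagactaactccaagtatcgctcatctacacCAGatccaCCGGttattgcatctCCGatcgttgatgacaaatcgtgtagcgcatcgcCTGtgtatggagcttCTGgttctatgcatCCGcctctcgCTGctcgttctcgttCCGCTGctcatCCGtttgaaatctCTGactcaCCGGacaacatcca
AT2G01840: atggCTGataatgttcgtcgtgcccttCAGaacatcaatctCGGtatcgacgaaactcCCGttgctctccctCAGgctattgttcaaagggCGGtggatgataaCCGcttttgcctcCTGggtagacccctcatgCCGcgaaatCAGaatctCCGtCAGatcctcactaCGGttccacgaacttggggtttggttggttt
AT4G16870: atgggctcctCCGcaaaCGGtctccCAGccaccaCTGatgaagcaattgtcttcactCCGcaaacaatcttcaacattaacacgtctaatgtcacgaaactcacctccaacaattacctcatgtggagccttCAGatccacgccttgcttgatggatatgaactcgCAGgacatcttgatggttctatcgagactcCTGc
AT3G01345: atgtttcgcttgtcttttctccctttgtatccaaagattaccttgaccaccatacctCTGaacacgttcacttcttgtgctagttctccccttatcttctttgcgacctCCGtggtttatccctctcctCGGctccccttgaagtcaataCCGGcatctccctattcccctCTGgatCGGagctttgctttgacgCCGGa
AT3G05160: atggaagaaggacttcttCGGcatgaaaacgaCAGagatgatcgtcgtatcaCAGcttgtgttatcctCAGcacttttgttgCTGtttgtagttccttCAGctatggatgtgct
The first 200 bases held a median of 8 CHG sites in the 266 TE genes that rose and also of 8 in the 3890 TE genes of at least that length.

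The libraries held from 10349662 to 12119101 counts in cmt2/3 ldl2 and from 10422751 to 12808245 in WT. WT replicate 3 stood apart, with 27166 genes detected against 24754 and 25024 in WT replicates 1 and 2, so counts of genes are also given without it. Of the genes mutated, CMT3 fell to 7.95, 8.99 and 9.78 CPM (counts-per-million, scaled by TMM) in cmt2/3 ldl2, against 37.2, 38.1 and 32.4 CPM in WT. This is a log2 fold change of -2.01 ± 0.14 (SE) with an adjusted p of 2.10e-10 in edgeR's quasi-likelihood test. CMT2 had 27.7, 35.9 and 28.1 CPM in cmt2/3 ldl2 and 39.0, 40.2 and 36.7 CPM in WT (log2 fold change -0.34, adjusted p = 0.762). LDL2 had 2.62, 3.20 and 3.59 CPM in cmt2/3 ldl2 and 4.996, 4.12 and 3.89 CPM in WT (-0.46, adjusted p = 0.909). Reads over a whole gene with a T-DNA insertion do not check its loss. The labelled tissue was checked with marker genes. The 5 shoot markers summed to 54833 to 56147 CPM in cmt2/3 ldl2 and to 47276 to 54120 CPM in WT. The 9 root markers summed to 124.9 to 151 CPM in cmt2/3 ldl2 and 121 to 204 CPM in WT. Of these, PYK10, NRT2.1 and SCR averaged 76.3, 31.3 and 30.1 CPM in cmt2/3 ldl2 and 73.4, 44.0 and 30.9 CPM in WT. Every other root marker averaged under 1 CPM in both genotypes, so the sum rests on few genes. The 7 flower markers summed to 3.69 to 5.37 CPM in cmt2/3 ldl2 and 5.98 to 8.70 CPM in WT, without overlap, and the 14 seed markers to 3.41 to 5.89 CPM in cmt2/3 ldl2 and 2.26 to 13.3 CPM in WT. No gene of these 4 lists passed the test or was called by DESeq2 (1 root marker lower at an unadjusted p under 0.05). In seedlings, fewer cells that express a gene and less RNA per cell cannot be told apart.

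TE genes took a larger share of the counts in cmt2/3 ldl2, and nearly all TE genes that changed were higher there. The share was 0.670%, 0.658%, and 0.692% of the counts in cmt2/3 ldl2, against 0.235%, 0.278%, and 0.400% in WT. The mean was 0.673% ± 0.0175 in cmt2/3 ldl2 and 0.304% ± 0.0859 in WT (SD, n = 3 each), with no overlap and a ratio of 2.21. The exact permutation test over libraries gave p = 0.1 (two-sided), which is the smallest p that 3 against 3 allows. Without the 10 TE genes that had the most counts over all libraries, the difference was 0.268 percentage points in place of 0.369. Without WT replicate 3 it was 0.417 percentage points. At least 1 CPM was found for 536, 516, and 533 TE genes in cmt2/3 ldl2 and for 238, 243, and 424 in WT.

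Of the 3903 TE genes, 266 rose and 4 fell in cmt2/3 ldl2 (adjusted p under 0.05). The 266 genes are 6.82% of all TE genes, where 1.12% of all genes in the table rose and 0.107% fell. In each called gene the libraries of the genotypes did not overlap, which held for 8.32% of all genes with cmt2/3 ldl2 higher and for 7.39% with it lower. Without WT replicate 3, 230 TE genes rose. The calls rest on silent genes in most cases: 132 of the 266 genes had no count in any WT library, 68 had 1 to 3 counts over the 3 WT libraries, and 66 had more. For those with up to 3 counts a fold change is a lower bound or a ratio of small counts, with intervals and bounds that cover counting error only. In cmt2/3 ldl2, 209 of the 266 genes reached 1 CPM in every library, and 90 averaged 10 CPM or more. No count in either genotype was found for 1703 TE genes, which cannot be compared at this depth. Of the 2200 TE genes with counts, 12.1% rose. The rise was not particular to cmt2/3 ldl2. Against WT, 230 TE genes (5.89%) were higher and 9 lower in cmt2/3, and 475 (12.2%) were higher and 23 lower in suvh4/5/6 ldl2. Of all genes, 2.32% were higher and 1.36% lower in cmt2/3, and 2.94% and 1.01% in suvh4/5/6 ldl2.

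**Figure D1:**
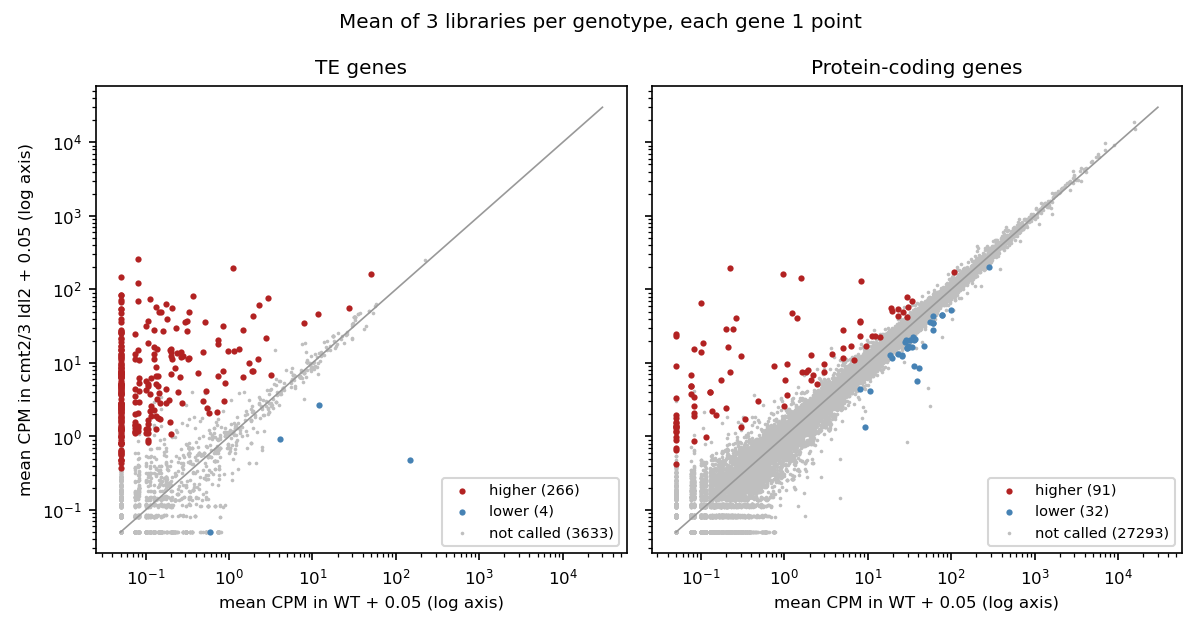
Mean CPM in cmt2/3 ldl2 (vertical) against mean CPM in WT (horizontal), both plus 0.05 on log axes, with 1 point per gene and 3 libraries per genotype. Most of the 266 TE genes that rose stand toward the left edge, 132 of them in a column at 0 CPM in WT, whereas most protein-coding genes lie on the diagonal and 91 rose and 32 fell.

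The 10 TE genes with the largest rise, among called genes with at least 1 CPM, are described in full. All of them but AT3G44215 had no count in any WT library, and their folds are lower bounds against 3 counts over the 3 WT libraries. AT5G43415 (chr5:17440088-17445889, counted on the antisense strand) had 147, 151 and 145 CPM in cmt2/3 ldl2 and 0 in each WT library, at least 1669-fold higher (adjusted p = 3.66e-07). AT3G44215, whose first bases are shown above, had 272, 241 and 274 CPM in cmt2/3 ldl2, against 0.0943, 0 and 0 CPM in WT. It had a single read in WT, and the ratio was 8923, 95% counting interval 1601 to 352471 with an adjusted p of 3.16e-15. The libraries of each genotype lay close together for both genes and did not overlap.

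AT1G33580 (chr1:12174773-12176059) and AT1G33570 (chr1:12173002-12174499) lie side by side on chromosome 1. They are near-identical copies, which can share reads, so their separate levels are uncertain. AT1G33580 had 79.0, 89.1 and 84.4 CPM in cmt2/3 ldl2 and 0 in each WT library, at least 951-fold higher (adjusted p = 7.72e-08). AT1G33570 had 79.3, 86.8 and 81.6 CPM in cmt2/3 ldl2 and 0 in each WT library, at least 934-fold higher (adjusted p = 3.70e-08). Both rose to a like level in every cmt2/3 ldl2 library.

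AT1G70010 (chr1:26367177-26371457) had 65.4, 72.7 and 62.6 CPM in cmt2/3 ldl2 and 0 in each WT library, at least 756-fold higher (adjusted p = 2.64e-14). AT2G01840 (chr2:373125-378447) had 60.4, 50.02 and 52.0 CPM in cmt2/3 ldl2 and 0 in each WT library, at least 612-fold higher (adjusted p = 2.57e-14). Both are counted on the sense strand and span more than 4 kb. The genes AT1G45020, AT5G24915, and AT3G43575, also with no WT count, were counted on the antisense strand. AT1G45020 (chr1:17024408-17028720) had 90.0, 56.6 and 71.2 CPM in cmt2/3 ldl2, at least 821-fold higher (adjusted p = 6.46e-09). AT5G24915 (chr5:8571956-8577856) had 48.4, 42.8 and 50.6 CPM in cmt2/3 ldl2, at least 534-fold higher (adjusted p = 1.74e-10). AT3G43575 (chr3:15493460-15497791) had 37.7, 47.2 and 34.5 CPM in cmt2/3 ldl2, at least 450.4-fold higher (adjusted p = 3.70e-08), and was the only one of the 10 in a region where TE genes outnumber protein-coding genes.

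AT3G29078 (chr3:11065643-11069288, antisense) differed from the rest in the spread between its libraries. It had 6.38, 119.7 and 35.1 CPM in cmt2/3 ldl2 and 0 in each WT library, at least 608-fold higher, with the largest adjusted p of the 10 genes (0.00696). The level in cmt2/3 ldl2 replicate 2 was far above that in replicate 1, and without WT replicate 3 the adjusted p was 0.0501, which does not pass. The gene ends 63 bases before the protein-coding gene AT3G29080, which rose with the same spread, with 3.41, 52.4 and 18.7 CPM in cmt2/3 ldl2 and 0 in each WT library (at least 281-fold higher, adjusted p = 0.00651). Reads of both were counted on the plus strand. The bases between them (chr3:11069289-11069351, plus strand) hold 1 CHG site, in capitals.
AT3G29078 to AT3G29080: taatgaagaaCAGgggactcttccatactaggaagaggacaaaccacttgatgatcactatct
Whether reads of 1 transcript were counted for both was not tested.

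**Figure D2:**
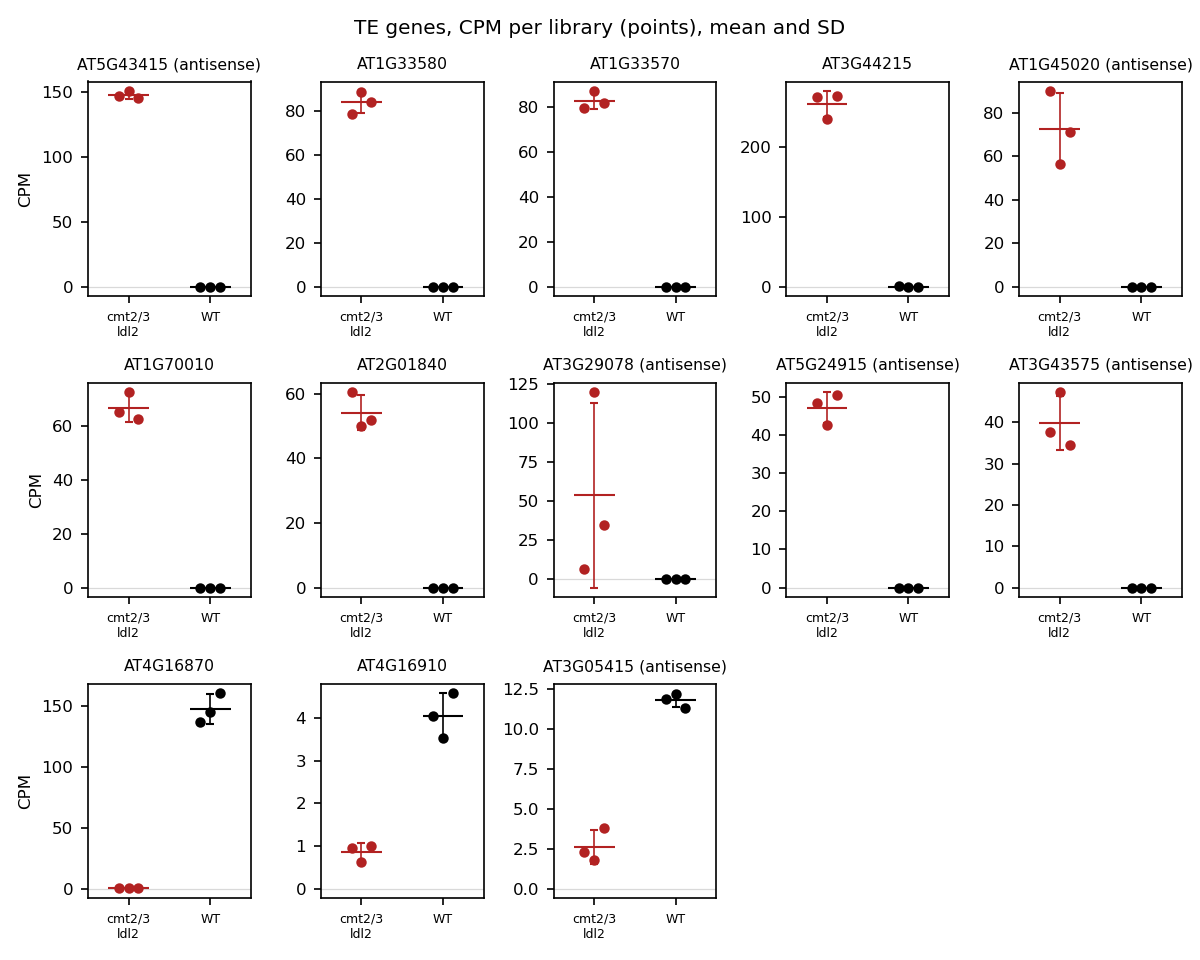
CPM in each library (points) with the mean and SD (bars) for cmt2/3 ldl2 (left of each panel) and WT (right), in 10 TE genes that rose most and 3 that fell most. WT libraries sit at or near 0 in the 10 genes that rose, and AT4G16870 shows the opposite pattern, with a mean of 0.431 CPM in cmt2/3 ldl2 and 147 CPM in WT.

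The TE genes that rose were longer than TE genes at large and lay more often on the chromosome arms. Their median span was 4032 bases, against 2047 over all TE genes and 2266 over those with counts. Windows of 500 kb in which TE genes outnumber protein-coding genes (TE-dense windows) held 67 of the 266 genes (25.2%), against 61.3% of all TE genes and 44.5% of the 2200 with counts. The remaining 199 genes (74.8%) lay on the arms, where 38.7% of all TE genes and 55.5% of those with counts are. Among TE genes of 4 kb or more, 112 of 363 (30.9%) rose on the arms and 26 of 421 (6.18%) in TE-dense windows. Among those of 1 to under 4 kb, 72 of 687 (10.5%) rose on the arms and 33 of 1394 (2.37%) in TE-dense windows. Among those under 1 kb, 15 of 460 (3.26%) rose on the arms and 8 of 578 (1.38%) in TE-dense windows. These shares are over all TE genes, with or without counts. Over those with counts, the median log2 fold change was higher in TE-dense windows in each length class. From short to long, it was -0.12, 0.27 and 1.74 on the arms and 0.14, 1.89 and 1.95 in TE-dense windows. A longer gene collects more reads at the same level, and the part of this in the order by length was not tested.

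**Figure D3:**
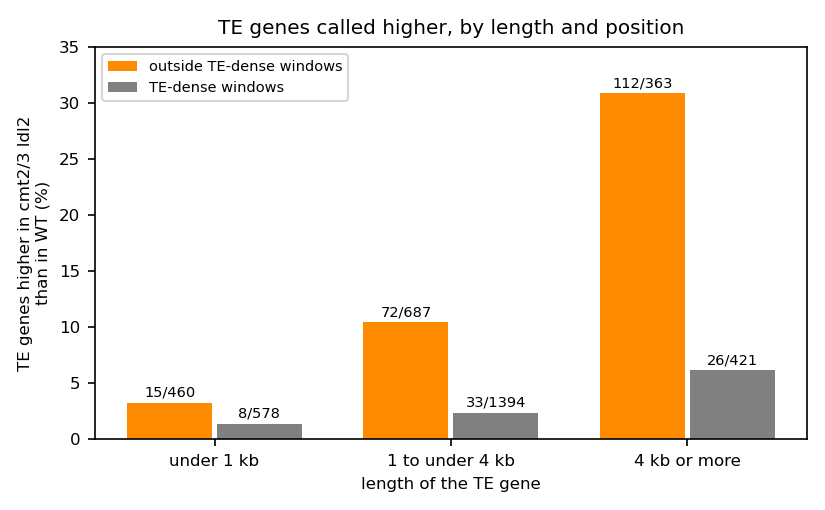
Percentage of TE genes that rose in cmt2/3 ldl2 against WT, by length of the TE gene (horizontal) and position (orange, outside TE-dense windows; gray, in TE-dense windows), with the number that rose and the number of TE genes on each bar. In each length class the share on the arms exceeds that in TE-dense windows, with 30.9% and 6.18% in the longest class. The shares are over all TE genes, with or without counts, and do not show the size of the change.

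The share on the arms was alike on 4 chromosomes and lower on chromosome 4. It was 14.5% on chromosome 1, 14.3% on chromosome 2, 13.9% on chromosome 3, 7.97% on chromosome 4, and 14.5% on chromosome 5. In TE-dense windows, 2.05% to 3.94% of TE genes rose, with the highest share on chromosome 3. TE genes that rose held a median of 73.3 CHG sites per kb on both strands, against 62.5 over all TE genes and 63.8 over those with counts. Of the 266 genes, 39 (14.7%) were counted on the antisense strand, against 45.3% of all TE genes and 32.2% of those with counts. A near-identical copy elsewhere, which can share reads, was found for 27.4% of the genes that rose and for 29.3% of all TE genes and 32.6% of those with counts. These are counts beside each other, with no test of the difference.

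The letters TGGTATCAGAGC were searched for on both strands in the 300 bases upstream of each TE gene. They are complementary to the 3′ end (with the added CCA) of the initiator methionine tRNA, taken from 8 of 12 methionine tRNA genes of TAIR10.1 that begin with A, and this tRNA primes reverse transcription in many plant Copia retrotransposons. They were found for 55 of the 266 TE genes that rose (20.7%), against 224 of all 3903 (5.74%). Among TE genes of 4 kb or more the shares were 47 of 138 (34.1%) and 150 of 784 (19.1%). Of the genes named here, AT3G44215, AT1G45020, AT4G16870, and AT4G04410 had them. A match of letters is not evidence of a functional site.

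Of the 4 TE genes that fell, AT4G16870 had by far the largest change. It had 0.786, 0.207 and 0.299 CPM in cmt2/3 ldl2, against 136, 145 and 160.0 CPM in WT (log2 fold change -8.33 ± 0.83, adjusted p = 1.60e-07). The WT libraries were thus all above 100 CPM and those of cmt2/3 ldl2 all below 1 CPM. In the comparison genotypes it had 1.58, 1.23 and 0.679 CPM in cmt2/3 and 0.361, 0.354 and 0.552 CPM in suvh4/5/6 ldl2, as low as in cmt2/3 ldl2. This TE gene lies in the RPP5 cluster of chromosome 4, a row of NLR immune receptor genes with TEs between them. It starts 68 bases after the end of RPP4, a gene for resistance to downy mildew, on the same strand. The bases between them (chr4:9488398-9488465, minus strand) hold the letters searched for above and 2 CHG sites, in capitals.
AT4G16870 to AT4G16860: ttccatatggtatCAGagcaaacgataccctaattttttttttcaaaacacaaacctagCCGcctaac
RPP4 itself (AT4G16860) had 209, 201 and 197 CPM in cmt2/3 ldl2, against 291, 292 and 276 CPM in WT, with no overlap (log2 fold change -0.50 ± 0.11, adjusted p = 0.0106). The call was lost when WT replicate 1 or 2 or cmt2/3 ldl2 replicate 2 or 3 was left out, with an adjusted p of up to 0.0785. SNC1 had 317, 292 and 300.5 CPM in cmt2/3 ldl2 and 293, 307 and 243 CPM in WT (0.11, adjusted p = 1), and RPP5 had 364, 339 and 350.3 CPM in cmt2/3 ldl2 and 332, 302 and 279 CPM in WT (0.21, adjusted p = 0.852). Neither passed the test.

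Another TE gene of the same cluster, AT4G16910 (chr4:9509676-9511760), had 0.961, 0.620 and 0.998 CPM in cmt2/3 ldl2, against 4.05, 3.53 and 4.58 CPM in WT (log2 fold change -2.22 ± 0.46, adjusted p = 0.00748). Without cmt2/3 ldl2 replicate 2, the adjusted p was 0.0703. The NLR gene AT4G16940, named after its values were seen, also fell, with 19.6, 19.2 and 22.0 CPM in cmt2/3 ldl2 against 31.8, 27.7 and 35.2 CPM in WT (-0.64 ± 0.14, adjusted p = 0.00982). The cluster thus held called falls beside genes, SNC1 and RPP5, that were not called. AT3G05415 (chr3:1555537-1560588) had 2.27, 1.76 and 3.79 CPM on its antisense strand in cmt2/3 ldl2, against 11.9, 12.2 and 11.3 CPM in WT (-2.17 ± 0.30, adjusted p = 4.16e-05). It lies to 98.3% in introns of AT3G05410, a photosystem II PsbP family gene whose reads run on the same strand. AT3G05410 fell as well, with 15.6, 15.2 and 18.4 CPM in cmt2/3 ldl2 against 33.9, 33.8 and 32.5 CPM in WT (-1.03 ± 0.12, adjusted p = 4.17e-06). The last of the 4, AT5G34825, was under 1 CPM in WT and had 0, 0 and 0 counts in cmt2/3 ldl2 against 4, 8 and 6 in WT. It was named only to complete the count.

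Protein-coding genes changed less often: 91 of 27416 rose (78 counted on the sense strand) and 32 fell. Without WT replicate 3, 75 rose and 28 fell. Of the genes that rose, 19 had no count in any WT library, and several were as silent in WT as the TE genes. Their median level was 7.90 CPM in cmt2/3 ldl2 and 0.249 CPM in WT, while the genes that fell had a median of 16.8 CPM in cmt2/3 ldl2 and 33.8 CPM in WT. The median log2 fold change over the 25905 protein-coding genes with counts was -0.02. In the same fit, more protein-coding genes were called in the other genotypes against WT. In cmt2/3, 529 (1.93%) were higher and 443 (1.62%) lower, and in suvh4/5/6 ldl2, 483 (1.76%) and 312 (1.14%).

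Among the 8 sense-counted genes with the largest rise, AT3G01345 had the highest level. It had 200.3, 199 and 195 CPM in cmt2/3 ldl2, against 0.189, 0.0980 and 0.229 CPM in WT (log2 fold change 10.04 ± 0.46, adjusted p = 7.76e-14). Its product is uncharacterized, and the libraries of each genotype were close to each other. AT5G28235 and AT5G45570, annotated as Ulp1 proteases, a family of SUMO-cleaving enzymes that some DNA transposons carry, are near-identical copies of each other and of AT4G08430, so that their reads can be shared. AT5G28235 had 27.3, 24.5 and 18.8 CPM in cmt2/3 ldl2 and 0 in each WT library (at least 266-fold higher, adjusted p = 1.37e-06). AT5G45570 had 73.3, 72.7 and 52.1 CPM in cmt2/3 ldl2, against 0, 0 and 0.153 CPM in WT (ratio 1124, 95% counting interval 311 to 9289, adjusted p = 2.77e-08). Of the 6 genes with this product in the table, these 3 rose, where 0.332% of all protein-coding genes did.

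AT4G29200, a beta-galactosidase related gene, had 6.99, 8.89 and 10.9 CPM in cmt2/3 ldl2 and 0 in each WT library (at least 101-fold higher, adjusted p = 1.25e-04). AT4G18150, a putative serine/threonine kinase gene, had 15.7, 17.36 and 12.9 CPM in cmt2/3 ldl2, against 0.0943, 0 and 0 CPM in WT (ratio 519.6, 95% counting interval 92.8 to 20566, adjusted p = 2.36e-14). Both were silent or nearly so in WT. AT2G16676, annotated as a non-LTR retrotransposon though listed as protein-coding, had 3.76, 2.38 and 3.79 CPM in cmt2/3 ldl2 and 0 in each WT library (at least 37.4-fold higher, adjusted p = 1.61e-09). AT5G03090 had 18.8, 18.1 and 19.7 CPM in cmt2/3 ldl2, against 0.0943, 0 and 0.0763 CPM in WT (ratio 319.7, 95% counting interval 88.1 to 2646, adjusted p = 1.11e-07). In all, 6 of 59 protein-coding genes with a retrotransposon or reverse transcriptase product rose, where 0.332% of all protein-coding genes did.

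The next genes, which also rose, were named after their values were seen, as genes with known roles or high levels. AT3G60950, which has a near-identical copy, had 161, 167 and 151 CPM in cmt2/3 ldl2, against 0.943, 0.588 and 1.22 CPM in WT (7.40 ± 0.23, adjusted p = 1.98e-16). MAF5, a MADS-box repressor of flowering related to FLC, had 10.3, 10.9 and 7.59 CPM in cmt2/3 ldl2, against 1.32, 1.18 and 0.610 CPM in WT (3.23 ± 0.36, adjusted p = 1.04e-06). Its neighbor MAF4, of the same family, had 4.28, 3.20 and 1.497 CPM in cmt2/3 ldl2, against 1.04, 0.0980 and 0.153 CPM in WT (2.81 ± 0.61, adjusted p = 0.0114). Both MAF genes were higher in every cmt2/3 ldl2 library than in every WT library. SQN, the cyclophilin 40 gene needed for full activity of the small RNA effector AGO1, had 43.3, 35.97 and 30.6 CPM in cmt2/3 ldl2, against 8.67, 7.94 and 7.63 CPM in WT (2.18 ± 0.41, adjusted p = 0.00214). It overlaps the TE gene AT2G15800, whose reads on the same strand rose too. DMT2, a homolog of the maintenance methyltransferase MET1, had 10.6, 9.41 and 8.69 CPM in cmt2/3 ldl2, against 2.45, 2.25 and 3.97 CPM in WT (1.71 ± 0.26, adjusted p = 1.43e-04). OFP9, annotated as a transcription repressor, had 31.4, 28.2 and 27.1 CPM in cmt2/3 ldl2, against 0.189, 0.0980 and 0.153 CPM in WT (7.51 ± 0.48, adjusted p = 5.35e-11). The other genes annotated so, AT2G19850 and AT3G54730, are near-identical copies of it and rose as well.

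The protein-coding genes that fell kept some transcription in cmt2/3 ldl2. AT1G22550 and AT3G05160 encode transporters of the major facilitator superfamily, of which 4 of 124 genes fell and none rose, where 0.117% of all protein-coding genes fell and 0.332% rose. This product group, like the Ulp1 protease and retrotransposon groups above, was picked after the values were seen, so its count is no independent support. AT1G22550 had 1.05, 1.65 and 1.198 CPM in cmt2/3 ldl2, against 10.3, 9.02 and 7.93 CPM in WT (-2.80 ± 0.44, adjusted p = 2.20e-04). AT3G05160 had 8.56, 8.16 and 8.59 CPM in cmt2/3 ldl2, against 42.9, 41.5 and 38.5 CPM in WT (-2.28 ± 0.17, adjusted p = 1.37e-09). RLP19, a receptor-like protein gene, had 5.42, 4.44 and 6.79 CPM in cmt2/3 ldl2, against 40.6, 30.4 and 44.5 CPM in WT (-2.79 ± 0.32, adjusted p = 2.19e-06). In these genes all WT libraries exceeded all cmt2/3 ldl2 libraries, which the rule for naming them required. RLP19 lies 1305 bases from the TE gene AT2G15070, which rose on the opposite strand.

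CMT3 was next in the size of its fall, with the values given above, and its fall was also seen in cmt2/3 (8.69, 9.16 and 11.6 CPM), whereas suvh4/5/6 ldl2, with CMT3 intact, had 28.7, 29.9 and 28.0 CPM. LCR68, of the defensin-like family of small cysteine-rich proteins, had 18.5, 17.57 and 14.7 CPM in cmt2/3 ldl2, against 51.0, 49.9 and 41.3 CPM in WT (-1.48 ± 0.28, adjusted p = 0.00282). AT1G61500, an S-locus lectin kinase gene, had 3.41, 5.37 and 3.49 CPM in cmt2/3 ldl2, against 9.71, 10.5 and 11.6 CPM in WT (-1.38 ± 0.25, adjusted p = 0.00128). AT3G16670, of the pollen Ole e 1 allergen and extensin family, had 27.3, 22.1 and 33.6 CPM in cmt2/3 ldl2, against 69.0, 57.1 and 54.2 CPM in WT (-1.12 ± 0.19, adjusted p = 7.87e-04). In these 3 genes, too, the genotypes did not overlap, as the rule required.

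Smaller falls, in genes named after their values were seen, included the following genes. XTH4, an enzyme of cell wall xyloglucan, had 57.0, 50.4 and 51.5 CPM in cmt2/3 ldl2, against 117, 97.5 and 85.8 CPM in WT (-0.92 ± 0.14, adjusted p = 1.87e-04). BR6OX2, an oxidase of brassinosteroid synthesis, had 14.0, 13.1 and 11.98 CPM in cmt2/3 ldl2, against 24.6, 24.5 and 20.1 CPM in WT (-0.82 ± 0.18, adjusted p = 0.0127). SAE1B, a subunit of the SUMO-activating enzyme, is annotated in a pair of identical loci, AT5G50580 and AT5G50680. AT5G50580 had 46.6, 46.4 and 42.7 CPM in cmt2/3 ldl2, against 77.2, 81.8 and 73.4 CPM in WT (-0.77 ± 0.10, adjusted p = 1.62e-05), and AT5G50680 had nearly the same values. With each set of near-identical copies counted as 1, 81 protein-coding genes rose and 27 fell, and 232 TE genes rose and 4 fell.

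**Figure D4:**
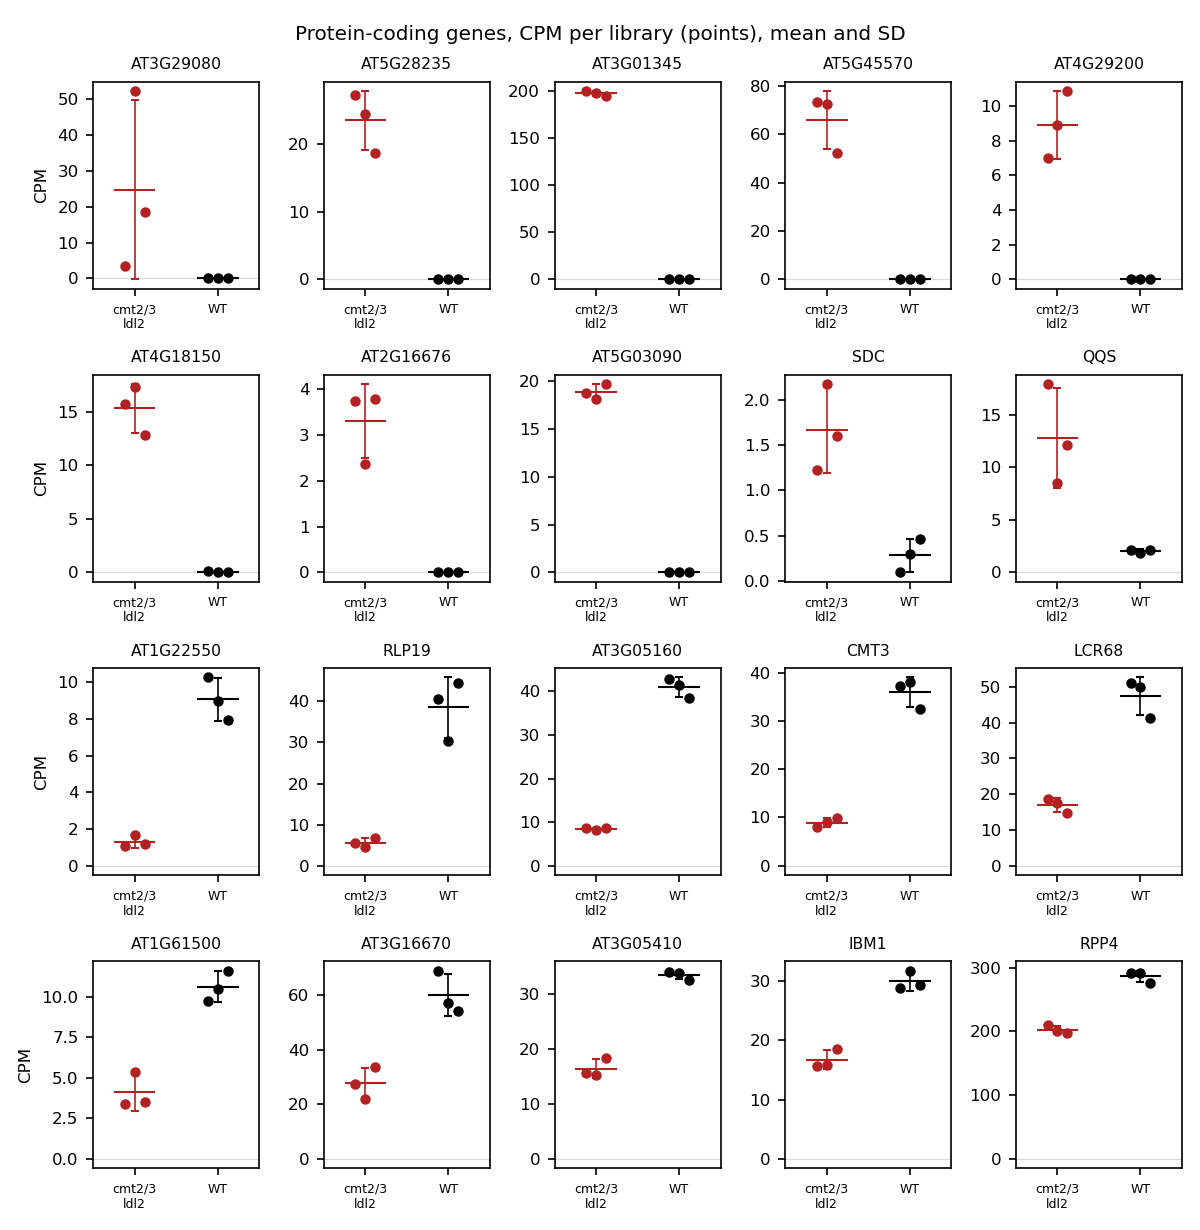
CPM in each library (points) with the mean and SD (bars) for cmt2/3 ldl2 (left of each panel) and WT (right), in the protein-coding genes chosen by rule and the called genes of the gene lists. AT3G29080 has the widest spread in cmt2/3 ldl2 (3.41 to 52.4 CPM), and in each of the genes that fell WT lies above cmt2/3 ldl2 without overlap, as in every called gene.

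The protein-coding genes that changed were also counted by their distance to TE genes, with no test of the difference. Of the 91 genes that rose, 12 (13.2%) lay within 2 kb of a TE gene that rose, against 190 of 27206 (0.698%) of all protein-coding genes on the chromosomes. Of the 32 that fell, 2 did (6.25%), RLP19 and AT1G61500. A TE gene of any kind lay within 2 kb of 18.7% of the genes that rose, 21.9% of those that fell, and 5.20% of all. In all 12 pairs with a gene that rose except AT3G26480 and its neighbor AT3G26483, the reads of both genes lay on the same strand. Whether such pairs share transcripts was not tested.

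Genes known to be silenced by DNA methylation were examined as a list of 6, of which 2 rose and none fell (0 lower at an unadjusted p under 0.05 or by DESeq2). Of all genes 1.12% rose, and of all TE genes 6.82%. DESeq2 called 3 of the 6 higher. In cmt2/3, too, 2 of the 6 were higher than in WT, where 2.32% of all genes were. QQS, an orphan gene that affects starch content, had 17.9, 8.47 and 12.1 CPM in cmt2/3 ldl2, against 2.17, 1.86 and 2.14 CPM in WT (log2 fold change 2.64 ± 0.27, adjusted p = 3.42e-07). SDC, an F-box gene silenced through tandem repeats in its promoter, had 1.22, 2.17 and 1.60 CPM in cmt2/3 ldl2, against 0.0943, 0.294 and 0.458 CPM in WT (2.46 ± 0.53, adjusted p = 0.0102). The groups did not overlap in either gene, but the call of SDC was lost without WT replicate 1 (adjusted p = 0.106), WT replicate 2 (0.0565), or cmt2/3 ldl2 replicate 2 (0.067), and with cmt2/3 ldl2 and WT alone in the fit (0.123). Of 9 genes of histone and DNA demethylation, IBM1 alone was called, and fell. Of the same 9 genes, 1 was lower than in WT in cmt2/3 and 2 in suvh4/5/6 ldl2, with none higher. Of all genes, 1.36% and 1.01% were lower in these genotypes. IBM1, the JmjC demethylase that removes H3K9 methylation from genes and holds methylated heterochromatin in an intron, had 15.7, 15.8 and 18.6 CPM in cmt2/3 ldl2, against 28.8, 31.7 and 29.4 CPM in WT (-0.84 ± 0.14, adjusted p = 7.17e-04). Of 9 genes of DNA methylation maintenance, CMT3 alone was called by edgeR, and DESeq2 called 2 lower.

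In the remaining lists no gene passed the test of edgeR. These were 7 genes of the SUVH family (2 lower at an unadjusted p under 0.05), 11 genes of RNA-directed DNA methylation (1 lower), 6 of post-transcriptional silencing (0), 8 copies of the heat-responsive COPIA78 element (0), 13 of defense (1 lower), 11 of heat response (0), 13 of flavonoid synthesis (1 lower), 6 of iron response (0), 4 of phosphate response (0), 10 of cold and abscisic acid response (1 higher), 10 of the clock (0), 5 of DNA damage (0), and 5 of flowering (1 higher). DESeq2 called none of them either. The 8 COPIA78 copies were all counted on the antisense strand, so their values are not levels of the annotated transcripts. The median log2 fold change of these lists lay between -0.53 (iron) and 0.88 (cold and abscisic acid), against -0.02 over all genes with counts. The iron genes differed in sign between median and sum, with 79.4 to 124 CPM in cmt2/3 ldl2 and 64.1 to 74.8 CPM in WT. The 10 cold and abscisic acid genes summed to 1487 to 2169 CPM in cmt2/3 ldl2 and to 1014 to 1635 CPM in WT, so that the groups overlapped.

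In the other classes of genes 19 rose. Of 394 other RNA genes, 10 rose (2.54%), and of 924 pseudogenes 9 rose (0.974%), where 1.12% of all genes did, with none lower in either class (9 and 16 lower at an unadjusted p under 0.05, and 1 and 0 by DESeq2). AT2G15555, an other RNA gene, had 105, 104 and 103 CPM in cmt2/3 ldl2, against 0, 0 and 0.153 CPM in WT (ratio 1759.8, 95% counting interval 487 to 14538, adjusted p = 2.27e-10). AT1G26558, of the same class, had 18.0, 18.7 and 20.1 CPM in cmt2/3 ldl2, against 0.283, 0.196 and 0.0763 CPM in WT (6.65 ± 0.37, adjusted p = 4.02e-12). The libraries of each genotype agreed closely in both. The pseudogene AT2G20910 had 8.82, 16.7 and 9.18 CPM in cmt2/3 ldl2 and 0 in each WT library (at least 131-fold higher, adjusted p = 2.32e-05). The pseudogene AT3G32377, which has near-identical copies, had 2.80, 0.930 and 0.998 CPM in cmt2/3 ldl2 and 0 in each WT library (at least 17.8-fold higher, adjusted p = 0.00359). No tRNA gene was called by edgeR or DESeq2 (1 higher and 12 lower at an unadjusted p under 0.05). The same held for miRNA genes (3 higher and 2 lower), snoRNA genes (1 lower), snRNA genes (0), and rRNA genes (0). The libraries were made from mRNA, so the levels of these short RNAs are hardly measured.

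To see where cmt2/3 ldl2 differed from cmt2/3 with intact LDL2, the same libraries of cmt2/3 ldl2 were compared with those of cmt2/3 (shared by both comparisons). In this comparison, 15 TE genes rose and none fell (33 lower at an unadjusted p under 0.05, and 2 by DESeq2), and 4 protein-coding genes rose and 2 fell. Over all genes, 0.0565% rose and 0.00595% fell. The share of counts on TE genes was 0.538%, 0.510%, and 0.525% in cmt2/3, so that the mean of cmt2/3 ldl2 was 1.28 times as high, without overlap (exact permutation test, p = 0.1, the smallest possible for 3 against 3). The counts of both classes depend on the estimate of spread. DESeq2 called 52 TE genes higher, and 74 protein-coding genes higher and 172 lower. With the compared genotypes alone in the fit, 88 TE genes rose and 2 fell, and 305 protein-coding genes rose and 1202 fell.

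The TE genes with the largest rise against cmt2/3 were AT3G09170, AT1G44880, and AT1G34610. AT3G09170 (chr3:2814050-2817769) had 7.08, 4.03 and 7.99 CPM in cmt2/3 ldl2, against 0.175, 0.189 and 0.388 CPM in cmt2/3 (log2 fold change 4.62 ± 0.57, adjusted p = 1.71e-04). AT1G34610 (chr1:12675584-12679303), its near-identical copy on chromosome 1, had 7.69, 4.03 and 7.99 CPM in cmt2/3 ldl2, against 0.175, 0.378 and 0.291 CPM in cmt2/3 (4.50 ± 0.55, adjusted p = 1.71e-04). The counts of these copies are nearly equal and may be of the same reads. AT1G44880 (chr1:16954386-16960042) had 13.7, 4.75 and 4.39 CPM in cmt2/3 ldl2, against 0.439, 0.283 and 0.194 CPM in cmt2/3 (4.58 ± 0.67, adjusted p = 0.00768). Its call was lost when any 1 library of cmt2/3 was left out (adjusted p from 0.05002 to 0.0740). AT2G01840, one of the genes with the largest rise against WT, had 3.86, 3.87 and 4.66 CPM in cmt2/3, so that cmt2/3 ldl2 was higher by 3.71 ± 0.22 on the log2 scale (adjusted p = 2.42e-09). In WT, AT1G44880 and AT2G01840 had no counts, and the other two had up to 0.377 CPM.

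**Figure D5:**
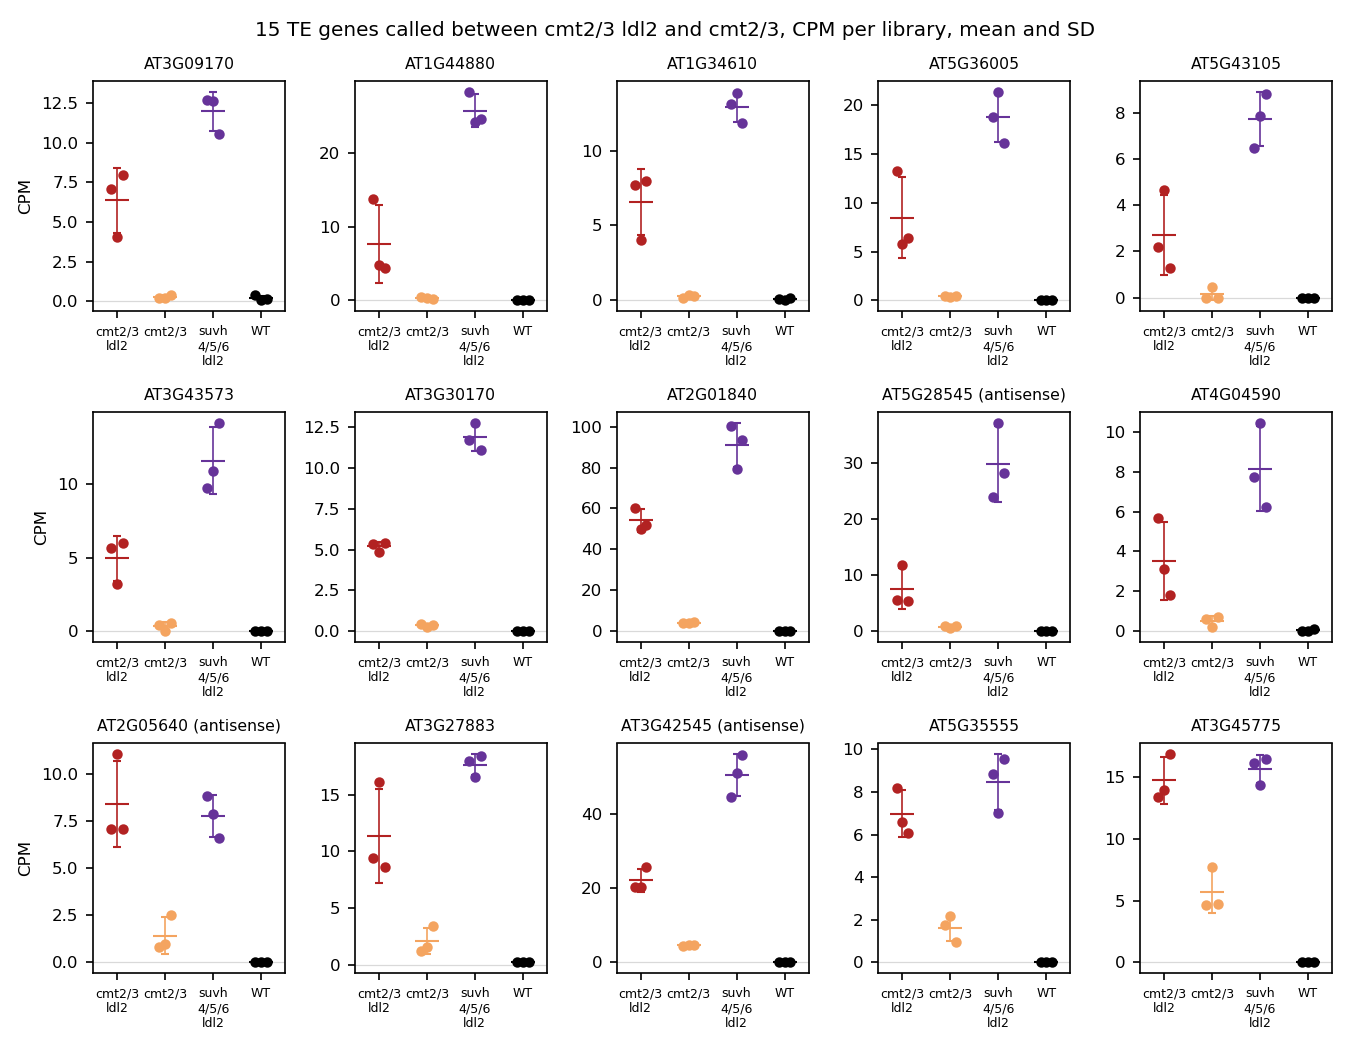
CPM in each library (points) with the mean and SD (bars) for cmt2/3 ldl2, cmt2/3, suvh4/5/6 ldl2, and WT, left to right, in the 15 TE genes that were higher in cmt2/3 ldl2 than in cmt2/3. All 3 cmt2/3 ldl2 libraries lie above the cmt2/3 libraries in each gene, as they do for 10.4% of all genes, and WT lies at or near 0.

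Among protein-coding genes, AT3G01345 followed the TE genes. It had 200.3, 199 and 195 CPM in cmt2/3 ldl2, against 20.0, 29.4 and 20.2 CPM in cmt2/3 (3.09 ± 0.28, adjusted p = 1.00e-06). AT3G05160 showed the opposite, with 8.56, 8.16 and 8.59 CPM in cmt2/3 ldl2, against 46.9, 51.7 and 39.6 CPM in cmt2/3 (-2.45 ± 0.18, adjusted p = 1.23e-08). The level of AT3G05160 in cmt2/3 lay in or above the range of WT. The other called genes had smaller changes and were named to complete the count. AT2G05635, of the RAD3/XPD helicase family, was higher by 2.08 ± 0.38 (adjusted p = 0.0277), AT1G23935 by 1.97 ± 0.33 (0.00832), and BRS1, a serine carboxypeptidase linked to brassinosteroid signaling, by 0.97 ± 0.16 (0.00847). AT3G47250, of unknown function, was lower, with a log2 fold change of -0.60 ± 0.11 (0.0423). Defense genes lay lower in cmt2/3 ldl2 than in cmt2/3 without passing the test (1 lower by DESeq2), with 10 of 13 at an unadjusted p under 0.05 and a median log2 fold change of -1.41, where 1847 of all 33602 genes were lower at that p. They summed to 116 to 171 CPM in cmt2/3 ldl2, against 362 to 518 CPM in cmt2/3 and 165 to 265 CPM in WT. Of the 11 heat response genes, which passed no test by edgeR either (1 lower by DESeq2), 6 were lower at that p, and the median log2 fold change over the list was -1.76. They summed to 40.3 to 83.1 CPM in cmt2/3 ldl2, against 117 to 171 CPM in cmt2/3 and 38.6 to 62.3 CPM in WT.

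Compared with suvh4/5/6 ldl2, which lacks the H3K9 methyltransferases, cmt2/3 ldl2 had lower levels of many TE genes. In this comparison, 3 TE genes were higher and 99 lower, and 6 protein-coding genes were higher and 69 lower, where 0.0298% of all genes were higher and 0.521% lower. The share of counts on TE genes was 1.001%, 1.08%, and 1.06% in suvh4/5/6 ldl2, so that the mean of cmt2/3 ldl2 was 0.643 times as high, without overlap (exact permutation test, p = 0.1). The calls depend on single libraries: 52 TE genes and 13 protein-coding genes were lower without cmt2/3 ldl2 replicate 1, and 60 TE genes and 10 protein-coding genes without suvh4/5/6 ldl2 replicate 2. Of the named TE genes above, AT5G43415 and AT3G44215 had nearly the same level in suvh4/5/6 ldl2, with 133, 138 and 133 CPM and 298, 279.6 and 268 CPM.

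Among the TE genes lower than in suvh4/5/6 ldl2, AT4G08680 had 0.175, 0 and 0 CPM in cmt2/3 ldl2, against 25.1, 26.7 and 25.9 CPM in suvh4/5/6 ldl2. This is a ratio of suvh4/5/6 ldl2 to cmt2/3 ldl2 of 403, 95% counting interval 111 to 3335, with an adjusted p of 1.19e-08. AT5G30450 had 0.349, 0 and 0 CPM in cmt2/3 ldl2, against 71.3, 38.3 and 2.39 CPM in suvh4/5/6 ldl2 (-8.07 ± 1.62, adjusted p = 0.03). Its call was lost by DESeq2, without any 1 cmt2/3 ldl2 library, and without suvh4/5/6 ldl2 replicate 1 or 2 (adjusted p from 0.0932 to 0.215). AT3G42712 had no count in cmt2/3 ldl2, against 1.62, 9.13 and 2.76 CPM in suvh4/5/6 ldl2 (at least 46.7-fold lower, adjusted p = 0.0484), and its call was lost under most other settings. These last calls thus rest on genes with a wide spread in suvh4/5/6 ldl2. AT4G04410 was higher in cmt2/3 ldl2, with 5.15, 10.2 and 9.88 CPM against 0.361, 0.266 and 0.184 CPM in suvh4/5/6 ldl2 (4.90 ± 0.63, adjusted p = 7.61e-05). WT had 6.79, 4.12 and 5.80 CPM of this TE gene, which overlaps cmt2/3 ldl2. SADHU5-1 (AT4G01525), the next in size, had 2.88, 4.13 and 2.096 CPM in cmt2/3 ldl2, against 0.722, 0.620 and 0.919 CPM in suvh4/5/6 ldl2 (1.99 ± 0.44, adjusted p = 0.0364). Its call was lost with the replicate number as a block (adjusted p = 0.0528) and without any 1 of the 6 libraries (0.0514 to 0.277).

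Of the gene lists, those with called genes against suvh4/5/6 ldl2 included the methylation-silenced genes, of which 3 of 6 were lower, where 0.521% of all genes were. SDC had 10.9, 17.3 and 13.1 CPM in suvh4/5/6 ldl2, so that cmt2/3 ldl2 was lower (-3.05 ± 0.41, adjusted p = 1.44e-04), and QQS had 38.4, 39.3 and 39.0 CPM in suvh4/5/6 ldl2 (-1.60 ± 0.23, adjusted p = 3.11e-04). The level of both in cmt2/3 ldl2 lay between that of WT and that of suvh4/5/6 ldl2. SUVH4 and SUVH5, mutated in the comparison genotype, were higher in cmt2/3 ldl2 by 1.96 ± 0.17 (adjusted p = 2.29e-07) and 1.67 ± 0.36 (0.0304), as was the DNA demethylase gene DML1, also known as ROS1, by 1.03 ± 0.18 (0.00496). Of the defense genes, PAD4, a lipase-like regulator of immunity, was lower (-2.12 ± 0.48, adjusted p = 0.0406), and 11 of 13 were lower at an unadjusted p under 0.05, as were 2027 of all 33602 genes. These genes summed to 116 to 171 CPM in cmt2/3 ldl2 and to 318 to 1014 CPM in suvh4/5/6 ldl2.

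A list of 194 TE genes regulated by LDL2 was taken from the study, which chose them by DNA methylation in the F1 plants of crosses between cmt2/3 and suvh4/5/6 lines with and without LDL2. It was not chosen on these mRNA libraries, but cmt2/3 ldl2 is a parent of the crosses. Of the 194 genes, 167 had counts in cmt2/3 ldl2 or WT, 80 rose and none fell against WT (1 lower at an unadjusted p under 0.05, and 0 by DESeq2), where 6.82% of all TE genes rose. The median log2 fold change over all 194 genes was 3.48. It was 1.83 with bounds, that is, with genes without counts in 1 genotype at their bound. Genes with up to 3 counts in each of the compared genotypes (39 here) were then set to 0. Against cmt2/3, 9 rose and none fell (1 lower at an unadjusted p under 0.05, 0 by DESeq2, median 0.85, and 0.62 with bounds), where 0.384% of all TE genes rose, and against suvh4/5/6 ldl2 none rose and 23 fell (5 higher at an unadjusted p under 0.05, 0 by DESeq2, median -0.82, and -0.63 with bounds), where 2.54% of all TE genes fell. The 194 genes summed to 1471 to 1586 CPM in cmt2/3 ldl2, 683 to 709 CPM in cmt2/3, 2925 to 3129 CPM in suvh4/5/6 ldl2, and 75.6 to 229 CPM in WT. The sums of the 4 genotypes did not overlap. Of 14 TE genes regulated by ASHH3 in the study's lists, 12 rose against WT, where 6.82% of all TE genes did. Their median log2 fold change was 8.16, and 6.73 with bounds. In cmt2/3, 11 of the 14 were higher than in WT, where 5.89% of all TE genes were. In suvh4/5/6 ldl2, 12 of the 14 were, where 12.2% of all TE genes were. Between cmt2/3 ldl2 and cmt2/3, 1 of the 14 was called, as higher (3 by DESeq2), and against suvh4/5/6 ldl2 none was.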

How the data were processed

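The seedlings, genotypes, and libraries are described above. The authors sequenced paired ends of libraries made with the KAPA mRNA HyperPrep Kit, aligned reads by STAR against TAIR10, and took per-gene numbers from its GeneCounts output. They deposited these counts without normalization, with the strand that had more reads for each gene, so that 1767 TE genes and 4528 protein-coding genes hold antisense counts, shown by their identifiers. The 279 organelle genes hold no counts. The strand is that of the reads and the choice was made over all libraries of the table, so a level on an antisense gene is not one of its annotated transcript.

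Counts were tested with edgeR (version 4.0.16, with limma version 3.58.1) in R (version 4.3.3). All 27 libraries of 9 genotypes were scaled by TMM and fitted together without a filter, the genotypes being the coefficients, and each contrast received a quasi-likelihood F test. Adjusted p values follow Benjamini and Hochberg over 33602 genes, and a gene was called where its adjusted p lay under 0.05. The test was also run on simulated counts for the comparison of cmt2/3 ldl2 with WT over 33602 genes. Changes were planted there only in genes averaging at least 1 CPM over all libraries, so genes silent in WT were not covered. CPM used the TMM-scaled library sizes. Shares of counts on TE genes were compared by exact permutation tests over libraries. A fold against a genotype with no counts is a bound against 3 counts over its 3 libraries, and a ratio against 1 to 3 counts has its 95% exact counting interval. TE-dense windows of 500 kb hold more TE genes than protein-coding genes. Near-identical copies share 95% identity over 80% of the shorter gene. Positions and sequences are of TAIR10.1, in which 3895 of 3903 TE genes have the position of the table.

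Samples with the same replicate number deviated together between cmt2/3 ldl2 and WT (r = 0.180, 0.235, and 0.116 for replicates 1, 2, and 3) and between cmt2/3 ldl2 and suvh4/5/6 ldl2 (r = 0.170, 0.207, and 0.170). The main tests did not pair the samples, and a run with the replicate number as a block is given as an alternative. The pairing in that run comes from these correlations alone. Every pair of replicate libraries of the 4 genotypes used here differed by more than the sampling noise.

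Genes were named by rule: among called genes with at least 1 CPM in the higher genotype and no overlap, the 10 TE genes with the largest rise against WT, 3 TE genes that fell most, 8 protein-coding genes in each direction, and 2 of each other class, with the 3 TE genes in each direction against cmt2/3 and suvh4/5/6 ldl2, the mutated genes, and called genes of the lists. The genes and lists were chosen with earlier results of these data known. The alternatives were RLE scaling, library totals alone, a filter on low counts (filterByExpr), organelle genes left out, the replicate number as a block, a fit of the compared genotypes alone, the Wald test of DESeq2 (version 1.42.0), and each library left out in turn, and the count with near-identical copies as 1 was added after the data were seen.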

Additional observations from a re-analysis of the deposited data

Results flagged for a closer look

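Results were singled out where the change from WT differed between cmt2/3 ldl2 and another genotype by a test of the difference itself, which is the direct comparison of the genotypes by edgeR's quasi-likelihood test. Between cmt2/3 ldl2 and cmt2/3, this held for 15 TE genes and 6 protein-coding genes. On the log2 scale, the difference was 3.71 for AT2G01840, 3.09 for AT3G01345, -2.45 for AT3G05160, 4.62 for AT3G09170, 4.58 for AT1G44880, and 4.50 for AT1G34610. Between cmt2/3 ldl2 and suvh4/5/6 ldl2, it held for 102 TE genes and 75 protein-coding genes. The difference was -1.70 for CMT3, which is intact in suvh4/5/6 ldl2, 4.90 for AT4G04410, 1.99 for SADHU5-1, -8.07 for AT5G30450, -3.05 for SDC, and -1.60 for QQS. For AT3G42712 (-8.63) and AT4G08680 (-8.43) the values are fitted and depend on a prior count, since cmt2/3 ldl2 had 0 and 2 counts over its libraries, and the bound and ratio in the text above take their place. With 3 libraries a genotype, no test for single libraries far from the others was made.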

How the results depend on the processing

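The count of TE genes that rose against WT (266) stayed within 1.5 times under each alternative run (226 to 293). Against WT, the compared genotypes alone in the fit gave 7 TE genes that fell, 221 protein-coding genes that rose, and 147 that fell, and DESeq2 gave 137 and 64. DESeq2 and library totals alone each gave 1 fall in the other classes. With each library left out in turn, 226 to 257 TE genes rose and 2 to 4 fell (2 without cmt2/3 ldl2 replicate 2), and 67 to 79 protein-coding genes rose and 21 to 28 fell (21 without WT replicate 2 or cmt2/3 ldl2 replicate 3). The difference in the share of counts on TE genes was 0.334 to 0.417 percentage points, and the median CPM over TE genes, an alternative to the share, was 0 in both genotypes.

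Against cmt2/3, DESeq2 gave 52 TE genes that rose and 2 that fell, and 74 protein-coding genes that rose and 172 that fell. The compared genotypes alone gave 88 and 2 TE genes and 305 and 1202 protein-coding genes. Library totals alone gave 2 and 1 protein-coding genes, and leaving cxs ldl2 replicate 2 out of the shared spread gave 5 that fell. With libraries left out, 10 to 15 TE genes and 1 to 4 protein-coding genes rose and 1 to 3 fell (1 rose and 1 fell without cmt2/3 ldl2 replicate 1 or 2, and 2 rose without any 1 cmt2/3 replicate).

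Against suvh4/5/6 ldl2, DESeq2 gave 32 TE genes that rose and 29 protein-coding genes that rose and 278 that fell. The compared genotypes alone gave 39 and 259 TE genes and 167 and 757 protein-coding genes, and filterByExpr gave 5 TE genes and 10 protein-coding genes that rose. Leaving out cxs ldl2 replicate 2 gave 10 protein-coding genes that rose. With libraries left out, 1 to 2 TE genes rose (1 without cmt2/3 ldl2 replicate 2 or 3 or any suvh4/5/6 ldl2 replicate) and 52 to 79 fell (52 without cmt2/3 ldl2 replicate 1 or 2, 56 without replicate 3, and 60 without suvh4/5/6 ldl2 replicate 2), and 2 to 4 protein-coding genes rose (3 without cmt2/3 ldl2 replicate 2 or 3 or suvh4/5/6 ldl2 replicate 1, and 2 without suvh4/5/6 ldl2 replicate 2) and 10 to 55 fell (13 without cmt2/3 ldl2 replicate 1 or 2, 12 without replicate 3, 10 without suvh4/5/6 ldl2 replicate 2, and 35 without replicate 3).

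With the replicate number as a block, which pairs the samples against WT and suvh4/5/6 ldl2, 255 TE genes rose and 4 fell against WT, and 88 protein-coding genes rose and 31 fell. The block left 1 TE gene higher than in suvh4/5/6 ldl2, and moved no other count by over 1.5 times. Of the 412 genes called against WT, 408 were shared with RLE scaling, 392 with the block, 409 with DESeq2, 409 with filterByExpr, 385 with library totals alone, and 340 with the compared genotypes alone. Between cmt2/3 ldl2 and cmt2/3, libraries of the same number deviated together for replicates 1 and 2 only (r = 0.129, 0.0853, and -0.0208). The best match of cmt2/3 ldl2 replicate 3 was cmt2/3 replicate 2 (r = 0.067). The cause of the differences between settings was not tested. Depth limits genes near 1 CPM, where 1 count is about 0.1 CPM, and copies that share reads.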
